A study of Mus musculus with 18 samples.

Results

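Abdominal aorta of male mice was profiled for 37 genes of myeloid cells and of leukocytes in general, listed by what their products do in these cells. Of these, 36 were found as the only gene symbol of a transcript cluster, each in 1 cluster, among 36232 genes with such a cluster. The 37th gene, Csf2rb, was named only together with microRNA genes in a cluster and was not used. The list holds receptors and surface proteins of monocytes and macrophages, surface proteins shared by most leukocytes, lysosomal proteins, subunits of the phagocyte oxidase, the transcription factor PU.1, signalling enzymes and proteins that steer the actin cytoskeleton.

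The 3 groups were PPE + Lenva systemic (7 mice), PPE (6 mice) and normal aorta (5 mice), with 1 array per mouse. PPE mice had porcine pancreatic elastase instilled into the infrarenal aorta, which damages elastic fibres and gives an aneurysm. PPE + Lenva systemic mice had the same operation and then lenvatinib, an inhibitor of several receptor tyrosine kinases, at 5 mg/kg in DMSO by daily oral gavage from day 7 to day 24, and tissue was taken on day 28. Normal aortas came from untreated mice, so elastase and the operation cannot be told apart in either comparison with them, and whether PPE mice had vehicle or gavage was not stated. The mice were 10 weeks old per the labels. The labels give their genotype as ApoE-/-, whereas in the study's methods the elastase model was made in wild type C57BL/6J animals and ApoE-/- mice served another model, so the strain is not settled here. Each sample was a piece of about 1 mm, with RNA integrity numbers of 5.7 to 9.8 over the samples.

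Monocytes enter an injured vessel wall from blood through chemokine receptors, are kept alive and matured by colony-stimulating factors, and become macrophages that engulf debris, make reactive oxygen with a membrane oxidase and secrete enzymes that digest matrix. The transcription factor PU.1, encoded by Spi1, binds purine-rich sites with a GGAA core in many genes of these cells. Most of the products listed are made in blood-derived cells and at little or no level in smooth muscle. In RNA of whole tissue, a change in the number of such cells and a change in RNA per cell cannot be told apart.

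Promoter sequences were searched for the PU.1-type letters GAGGAA, and for the longer GAGGAAGT that contains them, on both strands. RefSeq promoters of GRCm38.p6, 300 bases each with 250 before and 50 from the start on, were at hand for 27 of the 36 genes. GAGGAA occurred in 15 of the 27 (55.6%), against 31.3% of 27025 genes with a promoter. GAGGAAGT occurred in 2 of them, Cd53 and Vav1 (7.41%), against 3.69% of those genes. In 10 of the 15 a match lay before the start and in 5 only at or after it. The 100 bases before the start of the 7 genes with GAGGAA in that stretch are printed 5′ to 3′ on the gene's strand with the match in capitals, as these are the closest upstream matches, and TTCCTC is GAGGAA read on the opposite strand. In Vav1 the match is followed by gt, which completes the longer word, whereas the longer word of Cd53 lies after the start. A match is a run of letters and not a measured binding site.
Aif1: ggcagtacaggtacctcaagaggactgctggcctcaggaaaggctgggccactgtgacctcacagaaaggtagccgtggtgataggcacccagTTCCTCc
Cd53: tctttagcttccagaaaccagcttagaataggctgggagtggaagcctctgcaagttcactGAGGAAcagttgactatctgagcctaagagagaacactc
Csf2ra: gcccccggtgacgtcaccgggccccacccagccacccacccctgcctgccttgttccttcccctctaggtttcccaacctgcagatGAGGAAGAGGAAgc
Dock2: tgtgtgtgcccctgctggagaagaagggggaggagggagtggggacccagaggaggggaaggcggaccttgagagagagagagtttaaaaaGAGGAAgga
Laptm5: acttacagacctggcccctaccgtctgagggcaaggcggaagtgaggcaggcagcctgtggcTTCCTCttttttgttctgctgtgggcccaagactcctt
Plek: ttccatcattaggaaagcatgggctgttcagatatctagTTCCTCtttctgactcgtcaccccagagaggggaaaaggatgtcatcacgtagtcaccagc
Vav1: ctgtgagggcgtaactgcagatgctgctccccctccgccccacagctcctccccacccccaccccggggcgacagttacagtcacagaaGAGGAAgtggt
The windows lie at chr17:35176053-35176152 (Aif1, minus strand), chr3:106790150-106790249 (Cd53, minus strand), chr19:61228419-61228518 (Csf2ra, minus strand), chr11:34783906-34784005 (Dock2, minus strand), chr4:130913216-130913315 (Laptm5, plus strand), chr11:17008719-17008818 (Plek, minus strand) and chr17:57279000-57279099 (Vav1, plus strand).

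Every one of the 36 genes had a higher mean log2 signal in PPE than in normal aorta, and in PPE + Lenva systemic than in normal aorta. A gene was called higher or lower where the limma fit gave a Benjamini-Hochberg adjusted p under 0.05 over all 65956 clusters. In PPE vs. normal aorta 23 of the 36 genes were called higher (63.9%), against 1.41% of all clusters, and 0 were called lower, against 2.62%. Of the 7 genes whose promoter stretch is printed, Cd53, Dock2 and Vav1 were called higher in PPE than in normal aorta, and Aif1, Csf2ra, Laptm5 and Plek were not. In PPE + Lenva systemic vs. normal aorta 34 of the 36 were called higher (94.4%), against 2.77% of all clusters, and 0 lower, against 3.33%. At an unadjusted p under 0.05 all 36 genes were higher in both comparisons, against 7.57% (PPE) and 8.56% (PPE + Lenva systemic) of all clusters. All 36 genes lay among the 11121 clusters with deposited signals per array. In an overall F test of the 3 groups, computed anew, 98.2% of these clusters had p under 0.05, against 4.8% of the others. Among the clusters with signals per array, 8.26% were called higher in PPE vs. normal aorta and 16.1% in PPE + Lenva systemic vs. normal aorta. Their share at an unadjusted p under 0.05 is not given here, so the unadjusted count of 36 has no background of clusters selected alike. Both comparisons share the 5 normal aortas, so their values stand side by side and are not independent. The median difference over the 36 genes was 1.80 in PPE vs. normal aorta and 1.93 in PPE + Lenva systemic vs. normal aorta on the log2 scale, against -0.01 in each over all clusters with 1 symbol.

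**Figure D1:**
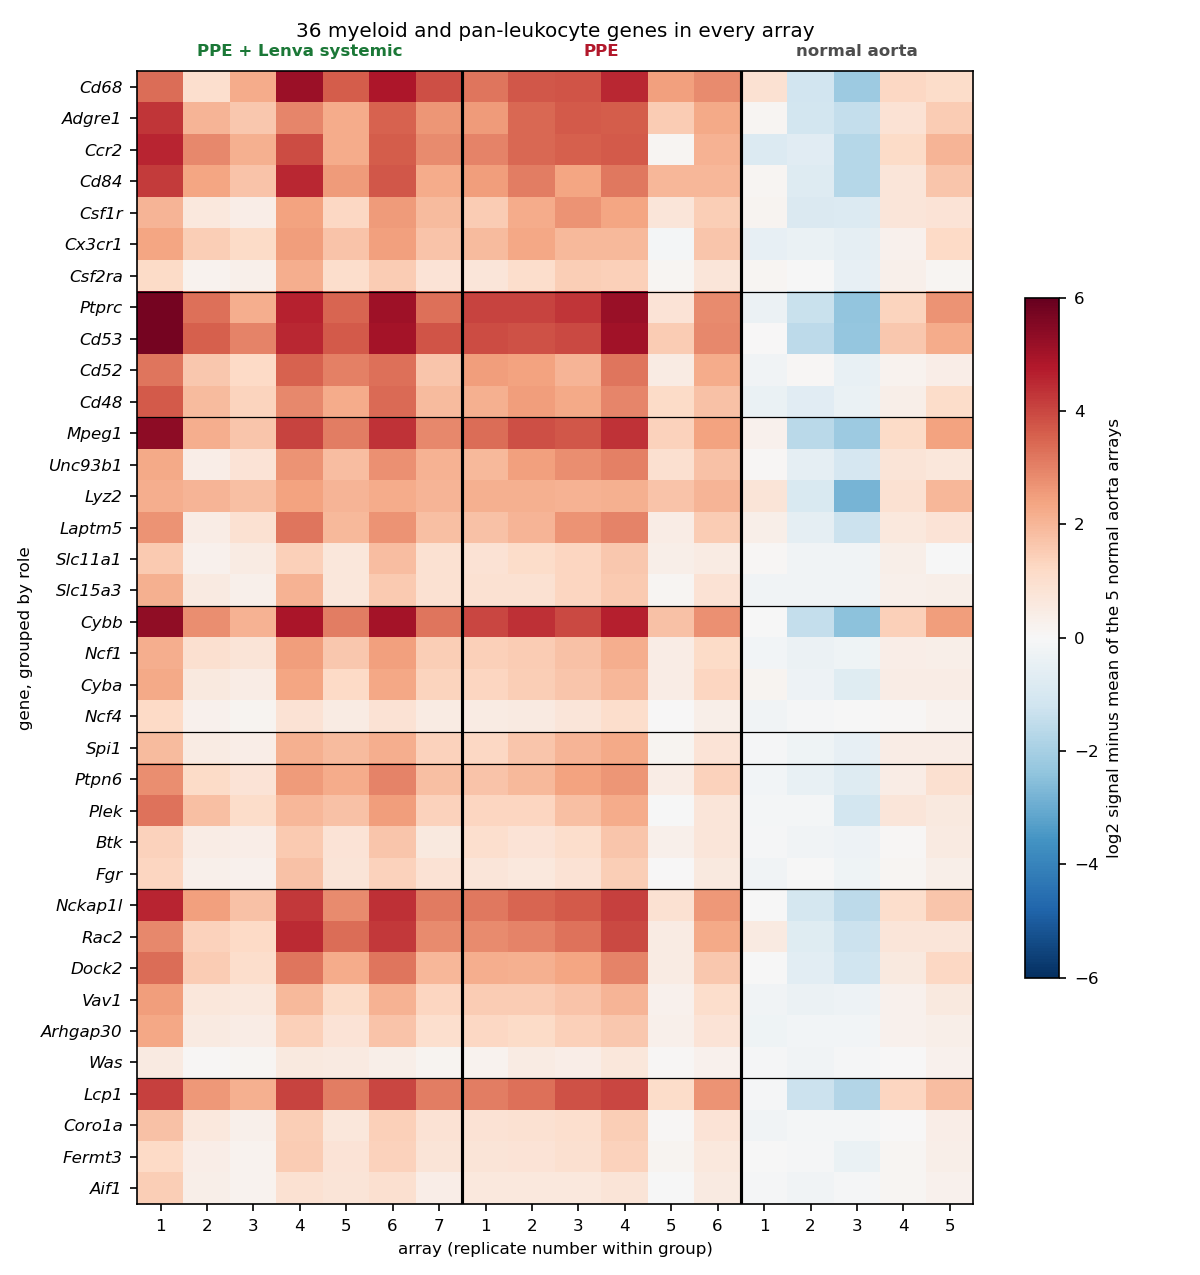
Heat map of the 36 genes (rows, grouped by role) in the 18 arrays (columns), as log2 signal minus the mean of the 5 normal aorta arrays of that gene. PPE + Lenva systemic and PPE columns are mostly red, replicates 2 and 3 of PPE + Lenva systemic and replicate 5 of PPE are paler, and among normal aortas replicates 4 and 5 are above replicates 2 and 3 for most genes.

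The count of 23 depended on single arrays. It was 14, 6 and 5 without normal aorta replicate 1, 2 or 3, it was 12, 10, 10 and 8 without PPE replicate 1, 2, 3 or 4, and it rose to 31 without PPE replicate 5. In PPE vs. normal aorta only Cd68, Adgre1, Cd48, Cd52 and Lcp1 were called with any 1 of the 18 arrays left out. The count of 34 was 17 and 18 without normal aorta replicate 2 or 3. The sign of both differences from normal aorta stayed positive for all 36 genes with any 1 array left out.

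Among receptors and surface proteins of monocytes and macrophages, 6 of 7 genes were called higher in PPE and in PPE + Lenva systemic than in normal aorta, with Csf2ra as the exception in both. Cd68 encodes macrosialin, a glycoprotein of macrophage endosomes and lysosomes. Its log2 signal was 10.21, 12.84 and 14.33 in PPE + Lenva systemic and 11.66, 12.68 and 13.71 in PPE (lowest, median and highest), against 7.02, 8.07, 10.12, 10.31 and 10.46 in the 5 normal aortas. All PPE arrays were above all normal aortas, and replicate 2 of PPE + Lenva systemic was the only treated array within their range. Cd68 was 10.8-fold higher in PPE than in normal aorta, a log2 difference of 3.43 ± 0.73 (SE, adjusted p = 0.0131), and 3.45 ± 0.71 (adjusted p = 0.00884) higher in PPE + Lenva systemic. With the authors' averages, which are not plain means of the signals, the Cd68 differences were 2.34 in PPE, without a call (adjusted p = 0.0762), and 2.46 in PPE + Lenva systemic. Adgre1, an adhesion receptor that marks mouse macrophages, gave 2.85 ± 0.57 in PPE (adjusted p = 0.00935) and 2.75 ± 0.55 in PPE + Lenva systemic (adjusted p = 0.00801). Its PPE arrays ran at 10.25, 11.73 and 12.41, so that the lowest equalled the highest of the normal aortas at 7.28, 7.62, 8.86, 9.61 and 10.25. Ccr2, which draws monocytes out of the marrow and into tissue, spanned 8.73, 9.50 and 11.20 in PPE + Lenva systemic and 6.71, 9.83 and 10.28 in PPE, against 4.92, 5.80, 5.93, 7.77 and 8.64 in normal aorta. PPE replicate 5, at 6.71, lay below normal aorta replicates 4 and 5, and the differences were 2.65 ± 0.72 for PPE (adjusted p = 0.046) and 3.18 ± 0.69 for PPE + Lenva systemic (adjusted p = 0.0124). With the authors' averages the PPE difference of Ccr2 was 3.54. Cd84, a SLAM-family receptor, had no overlap with normal aorta in either group, with 9.29, 10.12 and 12.11 in PPE + Lenva systemic and 9.56, 10.01 and 10.75 in PPE, against 5.86, 6.78, 7.67, 8.31 and 9.24 in normal aorta.

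The fractalkine receptor Cx3cr1 held 7.10, 7.65 and 8.46 in PPE + Lenva systemic and 5.82, 7.87 and 8.25 in PPE, against 5.43, 5.45, 5.55, 6.19 and 7.14 in normal aorta. Its lowest PPE value came from replicate 5, below 2 of the 5 normal aortas, while the other PPE arrays were above all of them, and its difference in PPE was 1.60 ± 0.41 (SE, adjusted p = 0.0346), or 2.40 with the authors' averages. Csf1r, the receptor of the macrophage growth factor CSF-1, differed by 1.84 ± 0.46 in PPE (adjusted p = 0.031) and by 1.59 ± 0.44 in PPE + Lenva systemic (adjusted p = 0.0402). Its signals were 9.61, 11.08 and 11.77 in PPE + Lenva systemic, 9.94, 11.05 and 11.91 in PPE and 8.32, 8.37, 9.37, 9.92 and 10.0 in normal aorta, so that the lowest arrays of both operated groups overlapped normal aorta. Csf2ra, the GM-CSF binding chain, had the smallest PPE difference of these receptors, 0.91 ± 0.31 (adjusted p = 0.108). It ran at 6.36, 7.20 and 8.35 in PPE + Lenva systemic, 6.26, 7.05 and 7.62 in PPE and 5.66, 6.12, 6.25, 6.29 and 6.44 in normal aorta, and its treated difference of 1.03 ± 0.30 missed the threshold at adjusted p = 0.0514.

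All 4 surface proteins shared by most leukocytes were called higher in both comparisons with normal aorta. Ptprc encodes CD45, the receptor phosphatase found on nucleated blood cells. Its signal was 11.01, 12.30 and 14.56 in PPE + Lenva systemic and 9.65, 12.88 and 14.0 in PPE (lowest, median and highest), against 6.47, 7.47, 8.46, 10.18 and 11.53 in normal aorta. Replicate 5 of PPE and replicate 3 of PPE + Lenva systemic were within the range of normal aorta, whose highest array was replicate 5, and the other arrays were above it. Ptprc was 11.7-fold higher in PPE than in normal aorta (log2 difference 3.55 ± 0.90, SE, adjusted p = 0.0338) and 15.6-fold higher in PPE + Lenva systemic (3.96 ± 0.87, adjusted p = 0.0127). With the authors' averages its PPE difference was 4.20. The tetraspanin Cd53 had the largest difference between PPE + Lenva systemic and normal aorta among the 36 genes, 4.17 ± 0.75 (adjusted p = 0.00394), with 13.58, 14.36 and 16.33 in PPE + Lenva systemic, 12.12, 14.48 and 15.63 in PPE and 8.31, 9.02, 10.62, 12.25 and 12.85 in normal aorta. Every treated array of Cd53 was above every normal aorta, while PPE replicate 5 was not. Cd48, a ligand of the SLAM family held in the membrane by a lipid anchor, had the smallest PPE difference of the 4, 2.12 ± 0.43, and the smallest adjusted p of all 36 genes in PPE + Lenva systemic vs. normal aorta, 0.00234. Its arrays ran at 7.09, 7.96 and 9.41 in PPE + Lenva systemic, 6.88, 7.96 and 8.66 in PPE and 5.08, 5.37, 5.37, 6.09 and 6.84 in normal aorta. Neither operated group overlapped normal aorta for Cd48, nor for the small lipid-anchored glycoprotein Cd52, at 6.25, 8.06 and 8.61 in PPE + Lenva systemic, 5.53, 7.39 and 8.27 in PPE and 4.62, 4.84, 5.12, 5.26 and 5.45 in normal aorta.

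**Figure D2:**
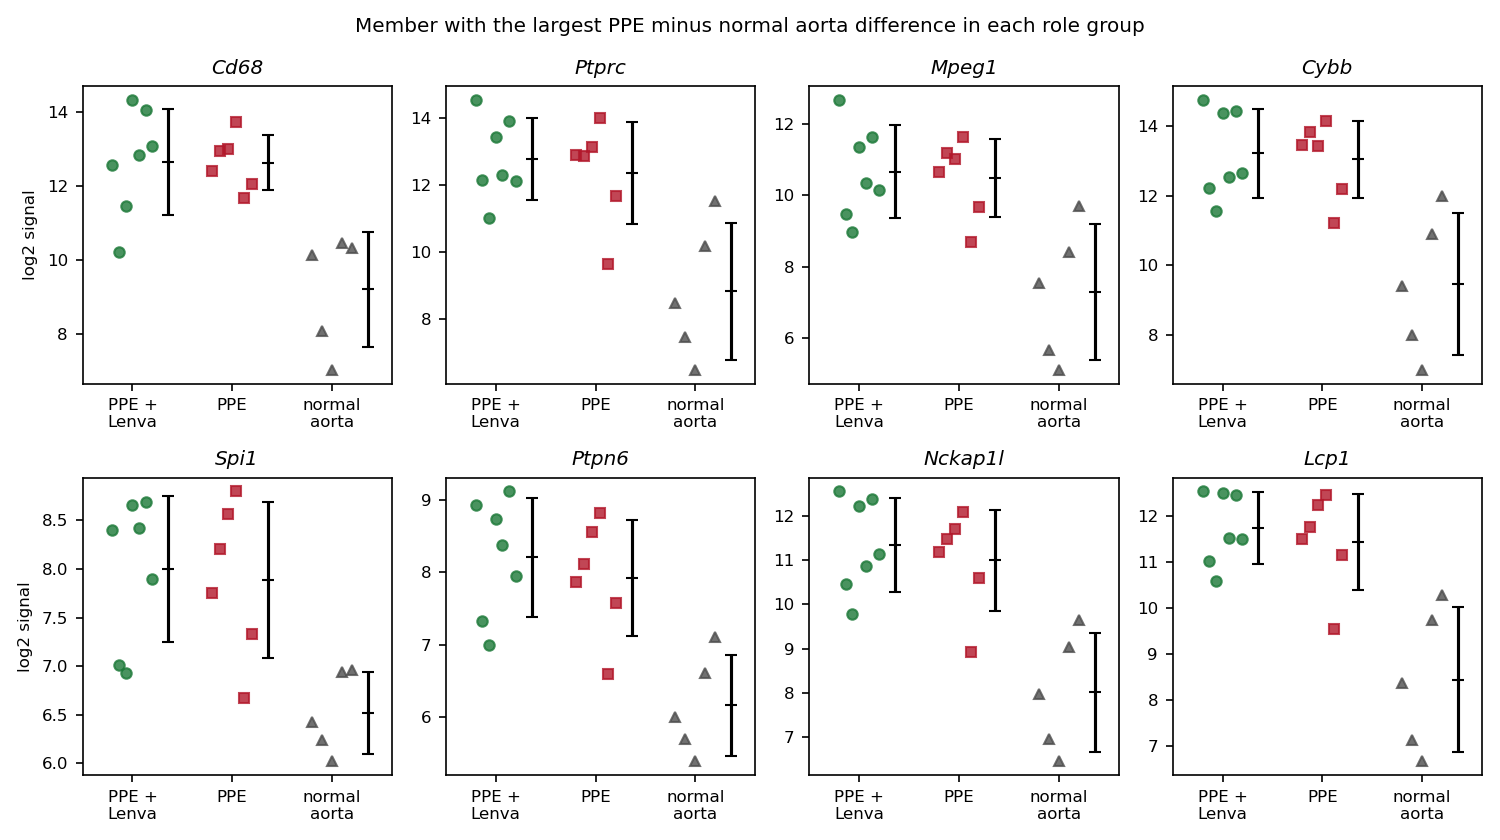
Log2 signals by array of the gene with the largest PPE minus normal aorta difference in each of the 8 role groups, with the group mean and SD beside the points (7 PPE + Lenva systemic, 6 PPE and 5 normal aorta arrays). Treated and PPE arrays overlap in all 8 panels, and for 7 of the 8 genes, Cd68 being the other one, at least 1 PPE array lies within the range of normal aorta.

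Of the 6 lysosomal, endosomal and antimicrobial proteins, Mpeg1, Unc93b1 and Lyz2 were called higher in PPE than in normal aorta and all 6 in PPE + Lenva systemic. Mpeg1 encodes perforin-2, a pore former of macrophages. It held 8.97, 10.34 and 12.67 in PPE + Lenva systemic and 8.69, 10.83 and 11.63 in PPE, against 5.12, 5.67, 7.54, 8.42 and 9.69 in normal aorta. Replicates 2 and 3 of PPE + Lenva systemic and replicates 5 and 6 of PPE were below the highest normal aorta, and the PPE difference was 3.18 ± 0.81 (SE, adjusted p = 0.0346). Unc93b1, which carries nucleic acid-sensing Toll-like receptors to endosomes, had PPE arrays of 8.04, 9.28 and 10.12, all above normal aorta at 6.11, 6.55, 7.18, 7.79 and 7.86, and treated arrays of 7.51, 9.20 and 9.82. It differed by 2.14 ± 0.46 in PPE (adjusted p = 0.0148) and by 1.84 ± 0.45 in PPE + Lenva systemic (adjusted p = 0.0227). Lyz2, the lysozyme of myeloid cells, was bright in every array, with 18.75, 18.97 and 19.36 in PPE + Lenva systemic, 18.62, 19.03 and 19.07 in PPE and 14.16, 16.0, 17.71, 17.86 and 18.90 in normal aorta. The scale of the array ends at 19.93. The difference of 2.04 ± 0.55 (adjusted p = 0.0473) came from a range of 14.16 to 18.90 among normal aortas, and with the authors' averages it was 1.72 and not called in PPE (adjusted p = 0.0867). Laptm5, a lysosomal membrane protein of blood cells, had a PPE difference of 1.90 ± 0.54 (adjusted p = 0.0561) and a treated one of 1.96 ± 0.52 (adjusted p = 0.0339), with 7.31, 8.83 and 10.12 in PPE + Lenva systemic, 7.32, 8.78 and 9.86 in PPE and 5.61, 6.36, 7.25, 7.51 and 7.71 in normal aorta. Slc11a1, which pumps divalent metals out of phagosomes, and Slc15a3, a lysosomal histidine and peptide carrier, had the smallest PPE differences of these proteins at 0.96 ± 0.28 (adjusted p = 0.0617) and 0.95 ± 0.33 (adjusted p = 0.109). Signals of Slc11a1 were 6.84, 7.51 and 8.45 in PPE + Lenva systemic, 6.95, 7.57 and 8.22 in PPE and 6.36, 6.38, 6.57, 6.68 and 6.95 in normal aorta. Those of Slc15a3 were 5.89, 6.48 and 7.73 in PPE + Lenva systemic, 5.71, 6.51 and 7.18 in PPE and 5.36, 5.39, 5.40, 5.87 and 5.92 in normal aorta, and for both genes PPE replicate 5 alone among PPE arrays overlapped normal aorta.

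The phagocyte oxidase passes electrons from NADPH to oxygen and needs membrane and cytosolic subunits. Cybb, its catalytic chain in the membrane, had a PPE difference of 12-fold (3.58 ± 0.84 on the log2 scale, SE, adjusted p = 0.0227), close to that of Ptprc, and one of 3.76 ± 0.81 in PPE + Lenva systemic (adjusted p = 0.0117). Of the 36 genes, Cybb had the largest PPE difference in means of the signals, whereas with the authors' averages Ptprc did, at 4.20 against 3.99 for Cybb. Its arrays were 11.55, 12.65 and 14.77 in PPE + Lenva systemic, 11.23, 13.44 and 14.14 in PPE and 6.99, 8.01, 9.42, 10.90 and 11.99 in normal aorta. As with Ptprc, only replicate 3 of PPE + Lenva systemic and replicate 5 of PPE were below the highest normal aorta. Cyba, its membrane partner, was at 7.44, 8.35 and 9.37 in PPE + Lenva systemic, 7.46, 8.40 and 9.0 in PPE and 6.26, 6.68, 7.16, 7.45 and 7.45 in normal aorta, with a PPE difference of 1.37 ± 0.37 (adjusted p = 0.0488) and no overlap between PPE and normal aorta. The cytosolic organiser Ncf1 was at 7.18, 8.02 and 8.90 in PPE + Lenva systemic, 6.86, 7.87 and 8.57 in PPE and 6.07, 6.17, 6.24, 6.76 and 6.82 in normal aorta, with no overlap of either operated group with normal aorta. Ncf1 was called in both comparisons, at 1.41 ± 0.33 in PPE (adjusted p = 0.024) and 1.71 ± 0.32 in PPE + Lenva systemic (adjusted p = 0.00543). Ncf4, which binds membrane phosphoinositides for the complex, was dim, at 4.75, 5.10 and 5.78 in PPE + Lenva systemic, 4.65, 5.13 and 5.66 in PPE and 4.40, 4.55, 4.59, 4.68 and 4.81 in normal aorta, and its PPE difference of 0.54 ± 0.18 was not called (adjusted p = 0.108).

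Of 7 other oxidase genes measured, 1 was called higher in PPE vs. normal aorta, against 1.41% of all clusters, and 0 were called lower. Rap1a, a small GTPase found with the membrane chains, was not called there, with a log2 difference of 0.44 ± 0.14 (SE, adjusted p = 0.0882). The largest p belonged to Nox1 and Noxo1, a catalytic chain and an organiser known from colon, with differences of -0.05 and -0.06. The median over the 7 measured genes of this kind was -0.05. In PPE + Lenva systemic vs. normal aorta 2 of the 7 were called higher, against 2.77% of all clusters. Rap1a was 1 of them, at 0.56 ± 0.14 (adjusted p = 0.0224).

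Spi1, the transcription factor PU.1 itself, held 6.93, 8.40 and 8.69 in PPE + Lenva systemic and 6.67, 7.98 and 8.80 in PPE (lowest, median and highest), against 6.02, 6.24, 6.43, 6.94 and 6.96 in normal aorta. PPE replicate 5 and treated replicate 3 lay below the highest normal aorta, and the other arrays of both groups lay above it. The PPE difference of 1.37 ± 0.40 missed the threshold (SE, adjusted p = 0.0618) and was called without PPE replicate 5, where it was 1.61 (adjusted p = 0.019). The treated difference of 1.48 ± 0.38 was called (adjusted p = 0.0299). Of 11 factors known to act with PU.1, Runx1 (1.71 ± 0.37, adjusted p = 0.015) and Ikzf1 (1.22 ± 0.32, adjusted p = 0.043) were called higher in PPE than in normal aorta, against 1.41% of all clusters. The largest p belonged to Cebpa at -0.14 ± 0.45 and Irf4 at 0.08 ± 0.32, and the median over the 11 was 0.50.

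Of 4 kinases, phosphatases and kinase substrates of blood cells, Ptpn6, the phosphatase SHP-1 that damps receptor signals, was the 1 called in PPE vs. normal aorta, whereas all 4 were called in PPE + Lenva systemic vs. normal aorta. Ptpn6 was at 6.99, 8.37 and 9.12 in PPE + Lenva systemic, 6.59, 7.99 and 8.82 in PPE and 5.39, 5.70, 6.01, 6.61 and 7.11 in normal aorta, with differences of 1.76 ± 0.44 for PPE (SE, adjusted p = 0.0332) and 2.04 ± 0.43 for PPE + Lenva systemic (adjusted p = 0.00996). Its PPE replicate 5 and treated replicate 3 were again the arrays within the range of normal aorta. The Src-family kinase Fgr was at 5.54, 6.17 and 7.02 in PPE + Lenva systemic, 5.32, 5.96 and 6.77 in PPE and 5.04, 5.07, 5.28, 5.41 and 5.62 in normal aorta, with a PPE difference of 0.72 ± 0.26 (adjusted p = 0.13). Btk, a Tec-family kinase of B cells and myeloid cells, was at 5.67, 6.06 and 6.92 in PPE + Lenva systemic, 5.57, 6.17 and 6.94 in PPE and 4.94, 5.06, 5.18, 5.34 and 5.79 in normal aorta, with 0.93 ± 0.26 in PPE (adjusted p = 0.0582). Plek, the protein kinase C substrate pleckstrin, was at 8.69, 9.37 and 10.85 in PPE + Lenva systemic, 7.57, 8.86 and 9.80 in PPE and 6.47, 7.44, 7.47, 8.18 and 8.30 in normal aorta. Its PPE difference was 1.22 ± 0.42 (adjusted p = 0.114), and its treated one of 1.98 ± 0.41 was called (adjusted p = 0.00939), with all 7 treated arrays above all 5 normal aortas.

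The GTPase Rac2 and its regulators drive the leading edge of moving leukocytes, and 5 of 6 of this group were called higher than in normal aorta in PPE and in PPE + Lenva systemic, with Was as the exception in both. Nckap1l, the blood cell subunit of the WAVE complex that starts actin branching, was at 9.78, 11.14 and 12.57 in PPE + Lenva systemic, 8.92, 11.34 and 12.10 in PPE and 6.44, 6.94, 7.96, 9.04 and 9.65 in normal aorta. It was 7.95-fold higher in PPE (2.99 ± 0.67 on the log2 scale, SE, adjusted p = 0.0174), and no treated array overlapped normal aorta. Rac2 was at 8.60, 10.30 and 11.86 in PPE + Lenva systemic, 7.89, 10.32 and 11.36 in PPE and 6.12, 6.69, 7.91, 8.11 and 8.14 in normal aorta, a PPE difference of 2.64 ± 0.66 (adjusted p = 0.0315). The exchange factor Dock2 was at 8.24, 9.42 and 10.54 in PPE + Lenva systemic, 7.67, 9.33 and 10.16 in PPE and 5.98, 6.55, 7.17, 7.74 and 8.42 in normal aorta. Vav1, another exchange factor and the one with GAGGAAGT before its start, was at 6.02, 6.65 and 7.86 in PPE + Lenva systemic, 5.61, 6.89 and 7.42 in PPE and 5.0, 5.05, 5.17, 5.64 and 5.97 in normal aorta. Dock2 and Vav1 differed by 1.97 ± 0.51 (adjusted p = 0.0387) and 1.35 ± 0.35 (adjusted p = 0.0399) in PPE. Arhgap30, a GTPase-activating protein, was at 5.71, 6.24 and 7.57 in PPE + Lenva systemic, 5.56, 6.44 and 6.88 in PPE and 5.0, 5.07, 5.08, 5.50 and 5.59 in normal aorta, and its 1.10 ± 0.30 in PPE was close to the threshold (adjusted p = 0.0477). Was, the Wiskott-Aldrich protein that activates actin nucleation, had the smallest PPE difference of the 36 genes, 0.36 ± 0.12 (adjusted p = 0.118), and 0.34 ± 0.12 in PPE + Lenva systemic (adjusted p = 0.104). Its signals were low and close together, at 4.97, 5.28 and 5.52 in PPE + Lenva systemic, 4.98, 5.25 and 5.62 in PPE and 4.72, 4.86, 4.87, 4.96 and 5.18 in normal aorta.

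Of 4 actin-binding and integrin-activating proteins, Lcp1 alone was called in PPE vs. normal aorta and all 4 in PPE + Lenva systemic vs. normal aorta. Lcp1, the actin bundler L-plastin, was at 10.60, 11.52 and 12.55 in PPE + Lenva systemic, 9.55, 11.64 and 12.47 in PPE and 6.67, 7.14, 8.38, 9.75 and 10.29 in normal aorta. It was 8.01-fold higher in PPE (3.0 ± 0.64 on the log2 scale, SE, adjusted p = 0.0133) and every treated array was above every normal aorta. Coro1a, a coronin that T cells and phagocytes need for migration, was at 6.47, 7.04 and 7.92 in PPE + Lenva systemic, 6.25, 7.05 and 7.64 in PPE and 5.94, 6.04, 6.05, 6.20 and 6.56 in normal aorta, with 0.87 ± 0.25 in PPE (adjusted p = 0.0643). Fermt3, the kindlin that activates leukocyte integrins, was at 6.04, 6.62 and 7.33 in PPE + Lenva systemic, 5.97, 6.61 and 7.20 in PPE and 5.42, 5.75, 5.80, 5.94 and 6.14 in normal aorta, with 0.79 ± 0.23 (adjusted p = 0.0668). Aif1, the calcium-binding macrophage marker IBA1, was dim at 5.10, 5.68 and 6.36 in PPE + Lenva systemic, 4.84, 5.52 and 5.68 in PPE and 4.67, 4.82, 4.82, 4.98 and 5.13 in normal aorta, with 0.53 ± 0.19 (adjusted p = 0.133). For these last 3 genes PPE replicate 5 lay within the range of normal aorta and the other 5 PPE arrays above it.

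**Figure D3:**
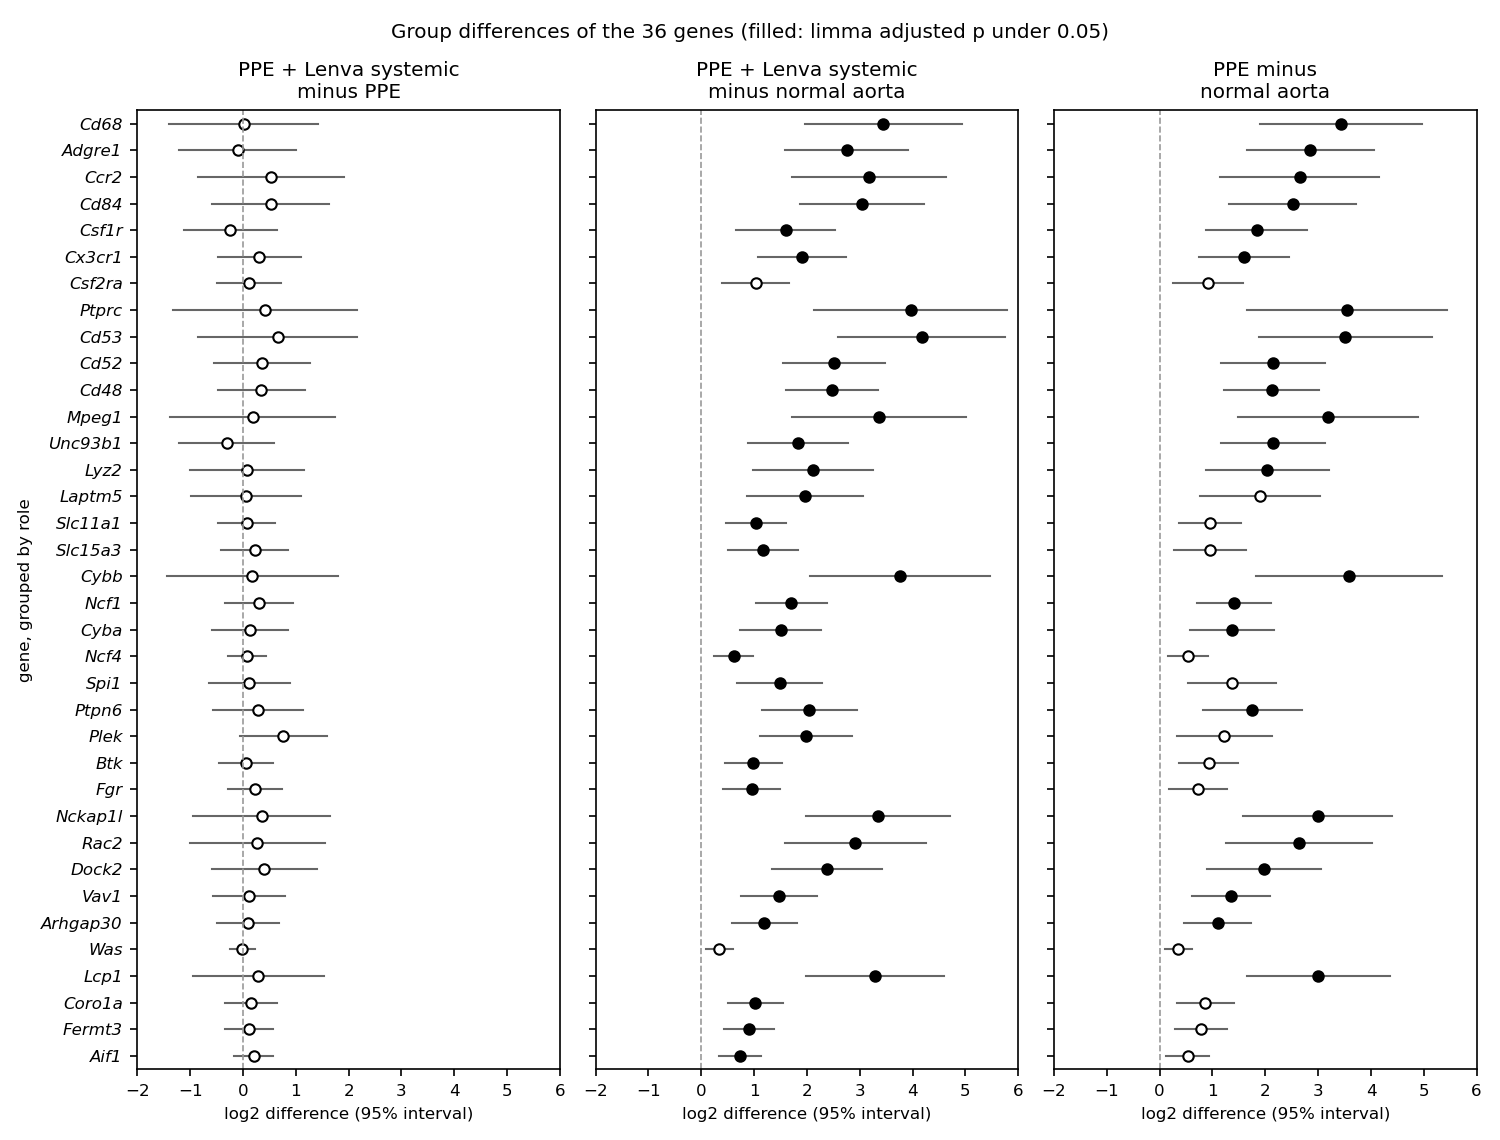
Log2 differences with 95% intervals of the 36 genes in 3 comparisons, filled where called. All intervals of PPE + Lenva systemic minus PPE span 0, and all intervals of both comparisons with normal aorta lie above 0, with 34 and 23 filled points.

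Between PPE + Lenva systemic and PPE, 0 of the 36 genes were called higher or lower, against 0 of all clusters in either direction. At an unadjusted p under 0.05 the number was also 0 of 36, against 3.41% of all clusters higher and 2.4% lower, and the smallest adjusted p of any cluster was 0.185. The differences ran from -0.31 for Unc93b1 to 0.76 for Plek, with 32 positive and 4 negative ones (Adgre1, Csf1r, Unc93b1 and Was) and a median of 0.18, against 0.01 over all clusters with 1 symbol. Without PPE replicate 5 the median was -0.05, with the authors' averages it was 0.04, and 16 of the 36 genes kept the sign of their difference with any 1 array left out. The 95% intervals reached from -1.44 to 2.16 over the genes, so that changes of several fold in either direction were not excluded for the most variable ones.

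The smallest unadjusted p in this comparison belonged to Plek, whose difference of 0.76 had a 95% interval of -0.06 to 1.58 (limma, adjusted p = 0.889). Replicates 1 and 6 of PPE + Lenva systemic were above every PPE array for Plek. Aif1 followed with 0.20 (-0.17 to 0.58), Cd84 with 0.53 (-0.58 to 1.64), Ncf1 with 0.30 (-0.35 to 0.94) and Fgr with 0.23 (-0.28 to 0.74), each with an adjusted p of at least 0.989. For Cd68, Cybb and Ptprc the differences were 0.02 (-1.40 to 1.43), 0.18 (-1.44 to 1.80) and 0.42 (-1.32 to 2.15). No gene separated PPE + Lenva systemic from PPE without overlap in either direction. Of the clusters with signals, 0.387% had all treated arrays above all PPE arrays, and the share below is not given here.

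Overlap between groups was set by few arrays. All PPE arrays were above all normal aortas for 7 of the 36 genes (Cd68, Cd84, Cd48, Cd52, Unc93b1, Cyba and Ncf1), against 6.68% of clusters with signals, and all treated arrays were above all normal aortas for 13, against 8.63%. PPE replicate 5 was the lowest PPE array for 36 of 36 genes and was above every normal aorta for 7. PPE replicates 2, 3 and 4 were above every normal aorta for all 36 genes and replicates 1 and 6 for 35. Without PPE replicate 5 the count of 7 was 34, and without normal aorta replicate 5 it was 17. With quantile normalization and with median-centred arrays it was 11 and 12. The share of clusters with signals is not given here for these settings, so a rise cannot be read as particular to the 36 genes.

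In PPE + Lenva systemic, replicate 3 was the lowest array for 30 genes and replicate 2 for the other 6, and they were above every normal aorta for 18 and 26 genes. Replicates 1, 4, 5 and 6 were above every normal aorta for all 36 genes and replicate 7 for 35. Replicate 1 was the highest treated array for 17 genes, replicate 4 for 13 and replicate 6 for 6. Among normal aortas, replicate 5 was the highest for 29 genes and replicate 3 the lowest for 25. Genes of different roles thus shared the lowest and the highest arrays of a group.

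The mean log2 signal over the 36 genes was 9.96, 8.39, 8.16, 9.87, 8.98, 9.87 and 8.92 in PPE + Lenva systemic replicates 1 to 7, and 9.01, 9.22, 9.37, 9.77, 7.75 and 8.63 in PPE replicates 1 to 6. It was 7.08, 6.53, 6.12, 7.70 and 8.08 in normal aorta replicates 1 to 5. PPE replicate 5 was thus below normal aorta replicate 5, and the range of PPE + Lenva systemic covered most of that of PPE. Within groups the SD of a single gene had a median of 0.73 over genes and groups.

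**Figure D4:**
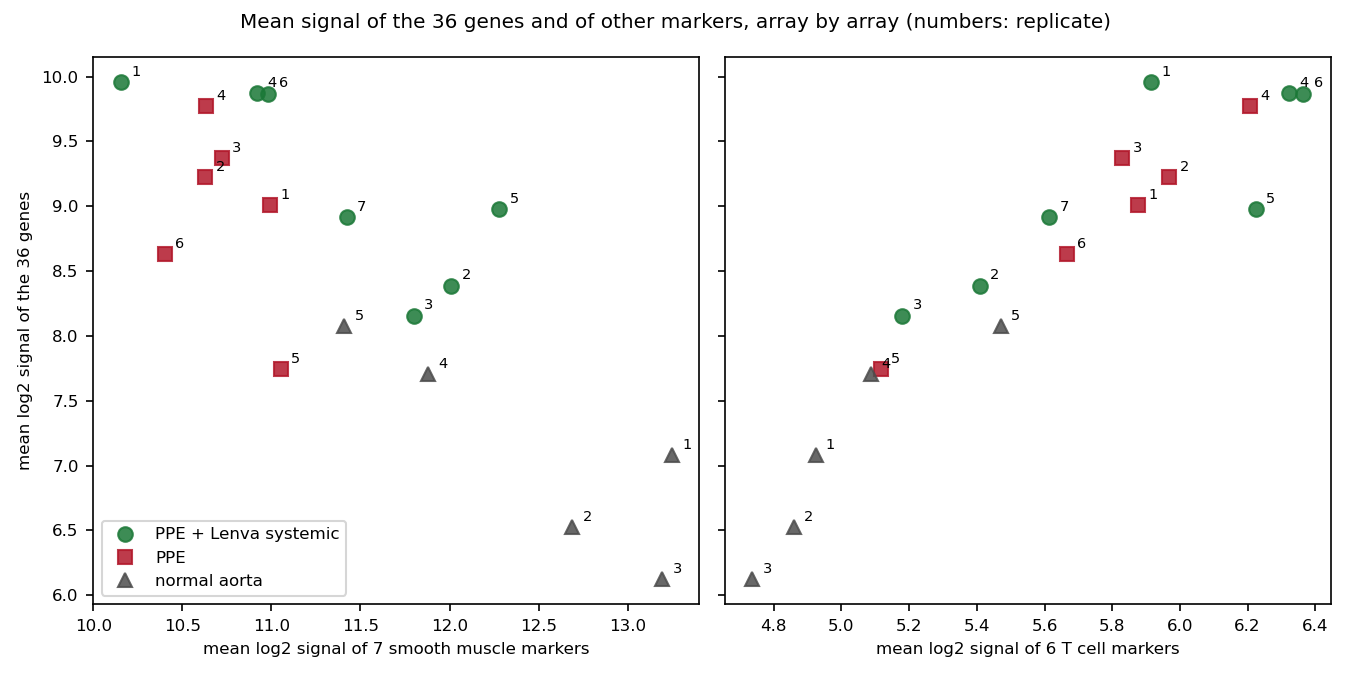
Mean log2 signal of the 36 genes (vertical axis) against the mean of 7 smooth muscle markers (left) and 6 T cell markers (right), 1 point per array with its replicate number. The 3 normal aortas with the lowest means of the 36 genes have the highest smooth muscle means, and in each of the 3 groups the array with the lowest mean of the 36 genes also has the lowest T cell mean.

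The labelled tissue was checked with markers of smooth muscle, its main cell type, and they differed between the same arrays. Over the 7 smooth muscle markers with signals per array, means ran from 10.2 to 12.3 in PPE + Lenva systemic and from 10.4 to 11.1 in PPE, against 11.4 to 13.2 in normal aorta. Of 8 smooth muscle markers, 0 were called higher and 5 lower in PPE than in normal aorta (against 2.62% of all clusters lower), with Synpo2 at -2.77 ± 0.48 (SE, adjusted p = 0.00319) and Myh11, smooth muscle myosin, at -3.12 ± 0.57 (adjusted p = 0.00483). Myocd had -1.02 ± 0.32 (adjusted p = 0.0845), and Acta2 stood at the ceiling of 19.93 in the authors' averages of all 3 groups. Normal aorta replicates 4 and 5, the highest of that group for the 36 genes, had the lowest smooth muscle means of their group at 11.9 and 11.4, and PPE replicate 5, the lowest of its group, had the highest of its group at 11.1. PPE replicate 6 did not follow that order, with the second lowest mean of the 36 genes in its group, 8.63, and the lowest smooth muscle mean, 10.4. Treated replicate 1, with the highest mean of the 36 genes, had the lowest smooth muscle mean of all arrays at 10.2. In the same group replicates 2 and 3, with the lowest means of the 36 genes, had 12.0 and 11.8, and replicate 5 had 12.3. The part of tissue composition in the differences was not tested.

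The 6 measured T cell markers averaged 5.18 to 6.37 in PPE + Lenva systemic and 5.12 to 6.21 in PPE, against 4.74 to 5.47 in normal aorta. In PPE vs. normal aorta 0 of 6 were called by limma, and 6 of 6 had an unadjusted p under 0.05. Cd3d and Cd3e, chains of the T cell receptor complex, had the smallest p at 0.49 ± 0.15 and 1.48 ± 0.46 (adjusted p = 0.0683 and 0.0807). In PPE + Lenva systemic vs. normal aorta 5 of 6 T cell markers were called higher, against 2.77% of all clusters. None of 6 B cell, 5 NK cell, 4 platelet, 2 red blood cell, 4 adipocyte or 6 fibroblast markers was called by limma in PPE vs. normal aorta, with 2 B cell, 1 NK cell and 1 platelet marker at an unadjusted p under 0.05 and 0 in the other lists. In the fibroblast list the smallest SE, 0.029, was the same as in the smooth muscle list, where Acta2 stood at the ceiling. A marker without spread within groups says little about a change. Of 8 neutrophil markers, Ngp was called lower (-0.37 ± 0.10, adjusted p = 0.0405) and 0 higher, and Ly6g, the marker of mouse neutrophils, differed by 0.20 ± 0.08 (adjusted p = 0.147). The neutrophil means over the 3 markers with signals were low in all groups, at 4.49 to 4.92 in PPE + Lenva systemic and 4.36 to 4.74 in PPE, against 4.51 to 5.13 in normal aorta. Of 7 dendritic cell markers 2 were called higher (against 1.41% of all clusters), Cd209a (1.14 ± 0.22, adjusted p = 0.00739) and Clec9a (1.09 ± 0.29, adjusted p = 0.0471).

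Markers of macrophages that reside in normal tissue were called in both directions. Of 6, the scavenger receptor Mrc1 was called higher in PPE (1.47 ± 0.38, SE, adjusted p = 0.0361), whereas Timd4, a receptor for dying cells, was called lower (-0.81 ± 0.14, adjusted p = 0.00383), as was Cbr2 (-1.99 ± 0.53, adjusted p = 0.0422). Lyve1 had 0.05 ± 0.35 and Folr2 0.69 ± 0.41. Of 6 endothelial markers, 3 were called lower in PPE than in normal aorta, against 2.62% of all clusters. The smallest p belonged to Vwf, a clotting factor made by endothelium, at -2.18 ± 0.44 (adjusted p = 0.00937) and Tek at -1.97 ± 0.42 (adjusted p = 0.0138). Of 5 mast cell markers, Kit was called lower (-0.92 ± 0.19, adjusted p = 0.0101).

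Many of the 36 genes have a close relative that is expressed more widely or in other cells, and 24 such pairs were set side by side for 16 of the genes. In all 24 pairs the PPE minus normal aorta difference of the listed gene was above that of its relative. All 36 listed genes, but 13 of the 24 relatives, lay among the clusters with signals per array, nearly all of which differed between groups. The genes and the pairs were chosen with earlier results of these data known, so the count of 24 is a description and no test. Of the 24 relatives, 5 were called higher, against 1.41% of all clusters, and 3 lower, against 2.62%, with a median difference of -0.03. Rac2 had 2.64 ± 0.66, against 0.27 ± 0.17 (SE, adjusted p = 0.461) for the ubiquitous Rac1. Nckap1l had 2.99, against -0.58 ± 0.21 for Nckap1 (adjusted p = 0.124). Relatives without signals per array, Rac1 and Nckap1 among them, were compared by the authors' averages and the listed genes by means of the signals. With the authors' averages Rac2 had 2.37 and Nckap1l 3.39. Lcp1 had 3.0, against -0.69 ± 0.22 for T-plastin, Pls3 (adjusted p = 0.086). Cybb and the vessel wall oxidase Nox4 pointed opposite ways, at 3.58 ± 0.84 and -1.35 ± 0.44, though Nox4 was not called (adjusted p = 0.0955).

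Called the other way were Fermt2, the kindlin of mesenchymal cells, at -1.11 ± 0.28 (SE, adjusted p = 0.0337) beside 0.79 for Fermt3, and Bmx, a Tec-family kinase of endothelium, at -1.88 ± 0.32 (adjusted p = 0.00288) beside 0.93 for Btk. The Src-family kinase Yes1 was also lower, at -0.42 ± 0.11 (adjusted p = 0.0403). The 5 relatives called higher were Vav2 at 0.46, Dock5 at 0.72, Coro1b at 0.78, Slc11a2 at 0.31 and Slc15a4 at 0.66. Coro1b, at 0.78 ± 0.21, was within 1 SE of Coro1a at 0.87 ± 0.25. Some of the relatives, Vav3, Fyn and Tec among them, are found in leukocytes too, and the differences within pairs were given no test.

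**Figure D5:**
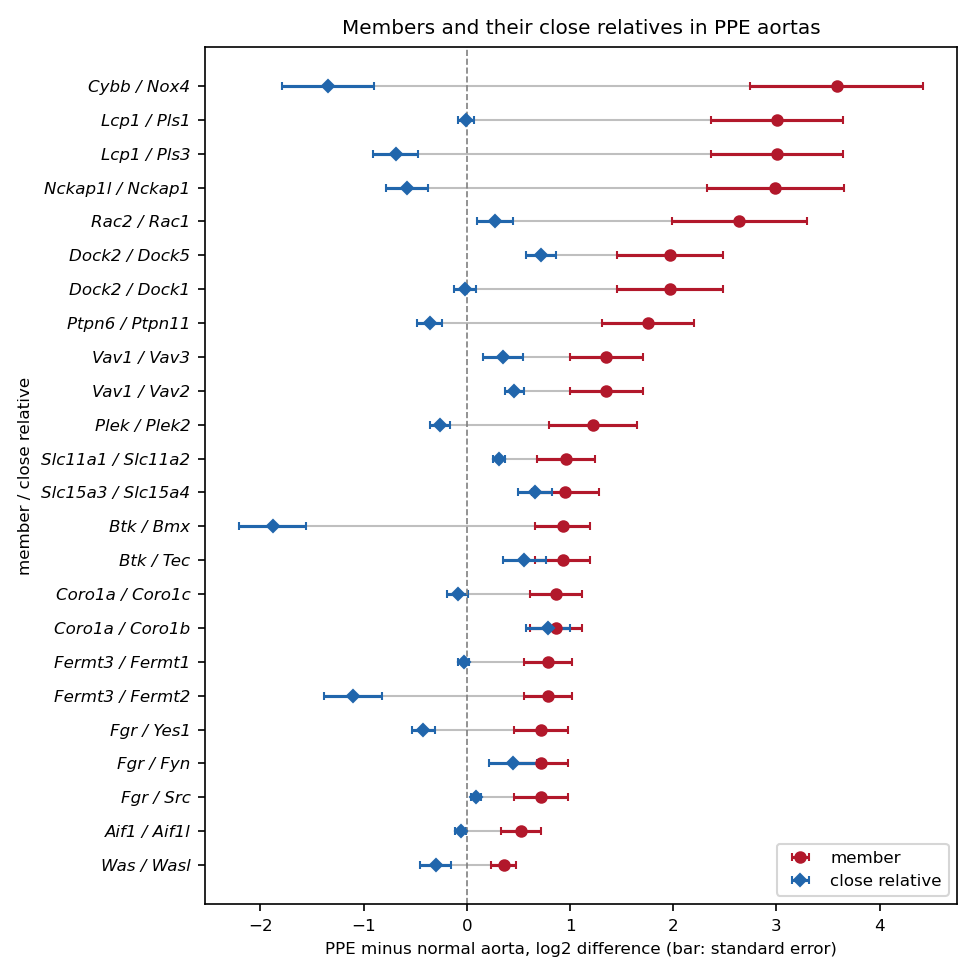
PPE minus normal aorta log2 differences with SE for 24 pairs of a listed gene (circles) and a close relative (diamonds), in the order of the listed gene's difference. Circles lie to the right of the diamond in all 24 pairs, by the least for Coro1a and Coro1b.

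Genes for the partners through which leukocyte receptors signal were mostly called too. Of 20 such genes, 14 (70%) were called higher in PPE vs. normal aorta and 0 lower, with a median of 1.49, and 19 in PPE + Lenva systemic vs. normal aorta. Over all clusters 1.41% and 2.77% were called higher in these comparisons. All 20 lay among the clusters with signals per array, of which 8.26% and 16.1% were called higher. The adaptors Tyrobp (3.14 ± 0.62, SE, adjusted p = 0.00859) and Fcer1g (3.26 ± 0.69, adjusted p = 0.0127), which carry the signals of activating myeloid receptors, had the smallest p. The largest belonged to Plcg2 (0.48 ± 0.25, adjusted p = 0.316), which was called in neither comparison with normal aorta.

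Of 5 ligands of Ccr2 and Cx3cr1, Ccl8 (3.43 ± 0.71, SE, adjusted p = 0.011) and Ccl12 (2.85 ± 0.68, adjusted p = 0.0253) were called higher in PPE than in normal aorta, and all 5 in PPE + Lenva systemic. Over all clusters 1.41% and 2.77% were called higher in these comparisons. Ccl2 and Ccl7 had PPE differences of 1.38 ± 0.56 (adjusted p = 0.18) and 2.48 ± 0.87 (adjusted p = 0.119) and treated ones of 2.76 ± 0.54 (adjusted p = 0.00721) and 4.07 ± 0.84 (adjusted p = 0.00964). Between PPE + Lenva systemic and PPE, Ccl2, Ccl7 and Ccl12 differed by 1.37 ± 0.52, 1.59 ± 0.80 and 1.33 ± 0.62 without a call (adjusted p = 0.782, 0.882 and 0.854), and Ccl8 by -0.31 ± 0.65. Of the 5 ligands, 2 (Ccl2 and Ccl12) had an unadjusted p under 0.05 there, against 3.41% of all clusters that were higher at that level.

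Among 9 ligands and relatives of the CSF receptors, the growth factor Csf1 was called higher in PPE (0.63 ± 0.17, SE, adjusted p = 0.043) and in PPE + Lenva systemic (0.59 ± 0.16, adjusted p = 0.0384). Csf3r, the G-CSF receptor, had 0.81 ± 0.25 in PPE (adjusted p = 0.0743). The genes of the cytokines Csf2 and Il3 differed by 0.00 and 0.02, with authors' averages of 3.49 to 3.59 for Csf2 and 3.62 to 3.65 for Il3 over the groups.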

How the data were processed

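RNA of 18 mouse aortas (7 PPE + Lenva systemic, 6 PPE, 5 normal aorta) was hybridised to Affymetrix MTA 1.0 arrays, 1 array per mouse, so the number of arrays limits the precision. The authors deposited log2 signals summarised by a robust multi-array average in Transcriptome Analysis Console 4.0.1.36 on build mm10, written with decimal commas. Signals per array were deposited for 11121 of 65956 clusters, and averages and SDs per group for all. The deposited averages are not plain means of the signals. Deposited columns with the authors' fold changes and p-values were not used, and 0 columns belonged to other samples.

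A model of group means was fitted in R 4.3.3 (limma 3.58.1, tables read by data.table, version 1.17.8) with a variance prior from the deposited SDs of all clusters (2.14 prior degrees of freedom). Clusters without signals got the same moderated statistic from averages and SDs, and p-values were adjusted after Benjamini-Hochberg over 65956 clusters. Differences are log2, the tested threshold was an adjusted p under 0.05 (two-sided), and intervals are 95%. The script was tested on simulated data. Replicates that share a number are different mice, and deviations of same-numbered arrays correlated from -0.575 to 0.492, so numbers were not treated as pairs. No pair of arrays was identical (highest correlation 0.991).

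Genes were taken from clusters with 1 symbol (36571 of 65956). Named genes were the largest and smallest PPE differences of each role, the 5 smallest p between PPE + Lenva systemic and PPE, the genes whose call depended on 1 array, and the 2 smallest and 2 largest p of each context list. Other genes were named after their values were seen, and results for some genes under this rule are not reported here. The listed genes and the context lists were chosen with earlier results of these data known. Alternatives were other normalizations, variance priors, adjustments, thresholds, array weights, the replicate number as a block, and dropping 1 array at a time. Promoters came from RefSeq (GRCm38.p6), with pandas 2.3.3 and matplotlib 3.10.9 in Python 3.11.15.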

Additional observations from a re-analysis of the deposited data

Results flagged for a closer look

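Of 108 tests for a single distant array, 1 for each of the 36 genes in each group, 3 were past Dixon's critical value at the 95% level, all for the lowest array of PPE, replicate 5. Chance flags about 1 in 20 such groups. Cx3cr1 had a log2 signal of 5.82 in that array, against 7.6 in the next lowest PPE array. Lyz2 had 18.62, against 18.97 in the next one, and Aif1 had 4.84, against 5.4. PPE replicate 5 was also the lowest PPE array for the other 33 listed genes without passing that value, and the cause was not tested.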

How the results depend on the processing

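The count of 23 genes called higher in PPE vs. normal aorta was 36 when p-values were adjusted over the clusters with signals alone, 2 at an adjusted p under 0.01, and 5 with a replicate block. The share of clusters called is not given here for the alternative settings, so these counts have no background of their own. The count of 34 in PPE + Lenva systemic vs. normal aorta was 13 at an adjusted p under 0.01 and 14 with the replicate block. With 1 array left out they ranged from 5 to 31 and from 17 to 35. The count of 0 between PPE + Lenva systemic and PPE stayed 0 under all 14 other settings run, the replicate block included, and with any of the 18 arrays left out. With 1 array left out the median differences were 1.52 to 2.04 in PPE vs. normal aorta, -0.05 to 0.33 in PPE + Lenva systemic vs. PPE, and 1.64 to 2.15 in PPE + Lenva systemic vs. normal aorta.

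The count of 7 genes without overlap between PPE and normal aorta was 11 with quantile normalization, 12 with median-centred arrays and 7 to 34 with 1 array left out. The share of clusters with signals without overlap is not given here for those settings. The 43 calls over the context and marker lists in PPE vs. normal aorta were 77 when adjusted over the clusters with signals alone, 10 at an adjusted p under 0.01, 14 with the replicate block and 15 to 61 with 1 array left out. They were 26, 15 and 16 without normal aorta replicate 1, 2 or 3, and 22, 21, 20 and 16 without PPE replicate 1, 2, 3 or 4. Between PPE + Lenva systemic and PPE the lists held 0 calls, and 7 with the filter of an unadjusted p under 0.05 and 2-fold. With the authors' averages the counts of listed genes were 26 in PPE and 31 in PPE + Lenva systemic vs. normal aorta. Cd68 and Lyz2 lost the call in PPE, Lyz2, Laptm5 and Ncf4 lost it in PPE + Lenva systemic, and Slc11a1, Slc15a3, Spi1, Btk and Coro1a gained it in PPE. No difference of a listed gene that was called turned its direction under any setting. The next brightest cluster could not be tried for the 36 genes, which have 1 cluster each.

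Limits. Signals per array were at hand only for 11121 clusters, nearly all of which differed between groups in the recomputed overall F test. Quantile normalization and median centring could therefore use those clusters alone, and clusters outside them rest on deposited averages. RNA integrity was not given per array. The genes move together across arrays, so their counts are not 36 independent results. The promoter table lacked 9 of the 36 genes.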
